A study of Mus musculus with 2 samples.

Results

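Glucocorticoids enter the cell and bind the glucocorticoid receptor, which moves to the nucleus and binds DNA at inverted repeats of a short half-site. In lymphocytes the hormone restrains growth and survival, and its level in blood changes with age, stress and time of day. The genes followed here were the receptor Nr3c1 and 6 genes known to respond to it: Rasd1, a Ras-like G protein induced by dexamethasone; Tsc22d3, which encodes GILZ, a transcriptional regulator that mediates anti-inflammatory actions of the hormone; Fkbp5, a co-chaperone that lowers the affinity of the receptor for its ligand; Per1, a core clock repressor; Ddit4, an inhibitor of mTORC1 also known as REDD1; and Pik3ip1, an inhibitor of PI3K that FOXO factors also control. These 7 genes, of 31053 counted, were listed because Rasd1 had been seen to be higher in neonatal myocardial B cells, so the age ratio of Rasd1 is given as a description. The question was whether the other targets shared that difference, whether the same cells held their transcripts, and whether their level followed Vpreb3 and Fcer2a.

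B cells were sorted by flow cytometry as live B cells from hearts of C57BL6/J wild-type mice and profiled with the 10x Genomics Chromium Single Cell 3′ v3 chemistry, in which a unique molecular identifier (UMI) marks each captured transcript. The neonatal library came from mice of 2 weeks (15 days in its title), pooled male and female, and the adult library from male mice of 8 weeks, with 6 mice at each age. Hearts of each age were pooled before sequencing. Hearts were digested with the same protocol and sorted on the same day. Cells were droplets with at least 2000 gene UMIs, at most 10% of them mitochondrial, and a UMI of Cd79a, a chain of the B cell receptor complex. This gave 2077 neonatal cells of 2507 droplets with 2000 UMIs and 3611 adult cells of 4120, and 14 neonatal and 4 adult droplets were left out for want of Cd79a alone. Neonatal cells had a median of 6000 UMIs and adult cells one of 6131, with 16403180 and 34623240 UMIs in all. There was 1 library per age, so age, litter and library cannot be told apart, no test between ages exists, and the 95% intervals below are exact and cover counting error only.

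The B cell genes Cd79b and Ms4a1 held 1800 and 1347 counts per 1000000 UMIs of the library (CPM) in neonatal cells and 1263 and 1154 CPM in adult cells, while the 6 T or NK markers summed to 10.2 and 11.4 CPM. The 5 fibroblast, 5 cardiomyocyte and 4 platelet markers each summed to at most 2.28 CPM. The 5 endothelial markers summed to 140 against 117 CPM, of which Pecam1, which leukocytes also carry, held 137 and 116 CPM, while Cdh5, Kdr, Fabp4 and Emcn each held at most 2.44 CPM. The 6 macrophage or monocyte markers were higher in the neonatal library, at 82.7 against 12.4 CPM, and so were the 5 neutrophil markers, at 27.2 against 0.0289 CPM, with 4 of the 5 at 0 in the adult library. The age ratio of Rasd1 was 1.72 on the log2 scale when every droplet with a UMI of these other cell types was left out. Pecam1 was among the genes used for this, and 860 of 2077 neonatal and 1654 of 3611 adult cells remained. The step thus removed many B cells as well. Of 110 barcodes with at least 500 UMIs in both libraries, 61 were among the neonatal and 45 among the adult cells.

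Rasd1, Pik3ip1 and Tsc22d3 were higher in neonatal than in adult myocardial B cells, Per1 was higher by less, and the intervals of Ddit4, Fkbp5 and the receptor Nr3c1 overlapped between the ages. Rasd1 lies at chr11:59963181-59964944 on the minus strand (GRCm38, GENCODE M21) and overlaps no other annotated gene. Its level was 104 CPM (95% interval 98.9 to 109) in neonatal cells and 29.6 CPM (27.8 to 31.5) in adult cells. The ratio was 3.50-fold, or 1.81 on the log2 scale (1.70 to 1.92), which put Rasd1 at rank 17 from the neonatal side among the 5370 genes that reached 20 CPM at one age or both.

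Pik3ip1 came next. It held 95.8 CPM in neonatal and 40.7 CPM in adult cells, a ratio of 2.35-fold, or 1.23 on the log2 scale (1.13 to 1.34), at rank 54 among the same genes. Its annotated span, chr11:3330401-3342971 on the plus strand, overlaps the gene model Gm12592 on the other strand. Tsc22d3 held far more UMIs than the other members. Its level was 914 CPM (900 to 929) in neonatal and 563 CPM (555 to 571) in adult cells, a log2 ratio of 0.70 (0.67 to 0.73), or 1.62-fold. Tsc22d3 lies at chrX:140539528-140600659 on the minus strand.

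The clock gene Per1, at chr11:69095217-69109960, held 46.5 CPM in neonatal and 33.7 CPM in adult cells, a log2 ratio of 0.46 (0.33 to 0.60). Its intervals in the 2 libraries did not overlap, but the ratio stayed below 1.5-fold. The mTORC1 inhibitor Ddit4 was scarce, at 8.23 against 6.82 CPM, and the interval of its log2 ratio of 0.27 included 0 (-0.04 to 0.58). Its direction changed with the setting. It was -0.16 as a mean over cells and lay between -1.21 and 0.73 in 4 bins of UMIs, made within each library. Fkbp5, among the genes most used as a readout of receptor activity, was likewise scarce. It held 9.33 CPM in neonatal and 10.7 CPM in adult cells, a log2 ratio of -0.19 (-0.47 to 0.08). That ratio ranged from -0.72 to 0.75 over the alternatives tried, the latter in 60 neonatal and 156 adult cells (-0.45 to 1.90). It was -0.35 (-0.70 to -0.008) in male cells and -0.33 (-0.61 to -0.05) with the median of all genes set to 0. For neonatal female over adult male cells it was 0.10 (-0.55 to 0.69). The receptor itself was present in both libraries, with 97.9 CPM of Nr3c1 in neonatal and 93.2 CPM in adult cells, a log2 ratio of 0.07 (-0.02 to 0.16).

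**Figure D1:**
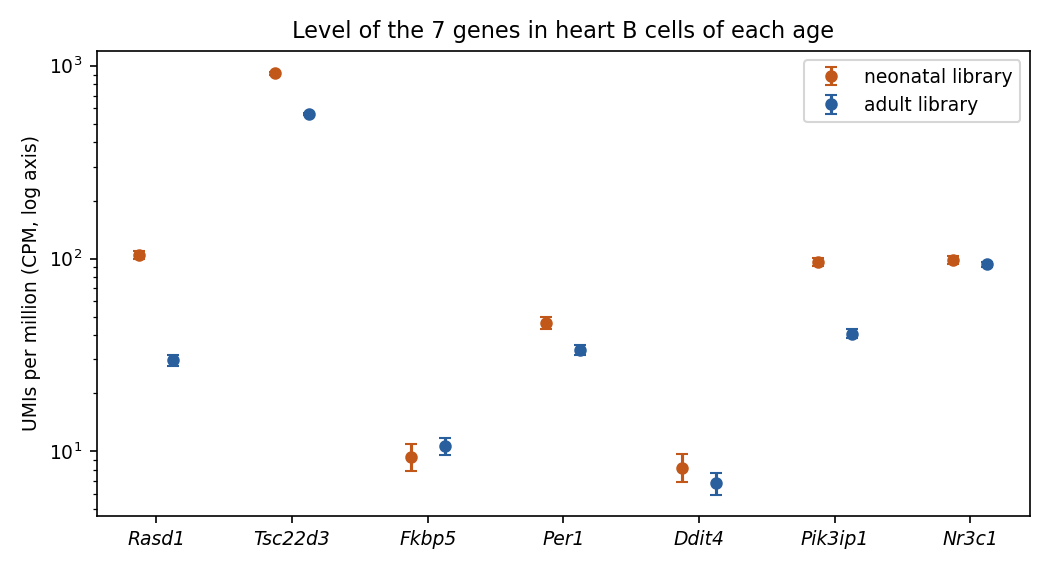
Level of the 7 genes in the neonatal and the adult library, in CPM over all cells on a log axis; bars are exact 95% Poisson intervals. Rasd1 stands at 104 against 29.6 CPM and Pik3ip1 at 95.8 against 40.7 CPM, while the intervals of Fkbp5, Ddit4 and Nr3c1 overlap between libraries.

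Of the 6 genes other than Rasd1, 2 (Pik3ip1 and Tsc22d3) were at least 1.5-fold higher in neonatal cells, and 0 were so in adult cells. Among all 9830 genes with at least 100 UMIs, 11.0% were at least 1.5-fold higher in neonatal and 6.49% in adult cells. The median log2 ratio was 0.37 over the 6 genes and 0.14 over all genes. With the median of all genes set to 0 the log2 ratio of Tsc22d3 was 0.56, below 1.5-fold, so that Pik3ip1 alone of the 6 passed, and that of Nr3c1 turned from 0.07 to -0.07. Rasd1 stood at 1.67 under that scaling. In the 60 neonatal and 156 adult cells with at most 5% mitochondrial UMIs the ratios of Pik3ip1 and Tsc22d3 were 0.54 (-0.24 to 1.29) and 0.33 (0.14 to 0.52), both below 1.5-fold.

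**Figure D2:**
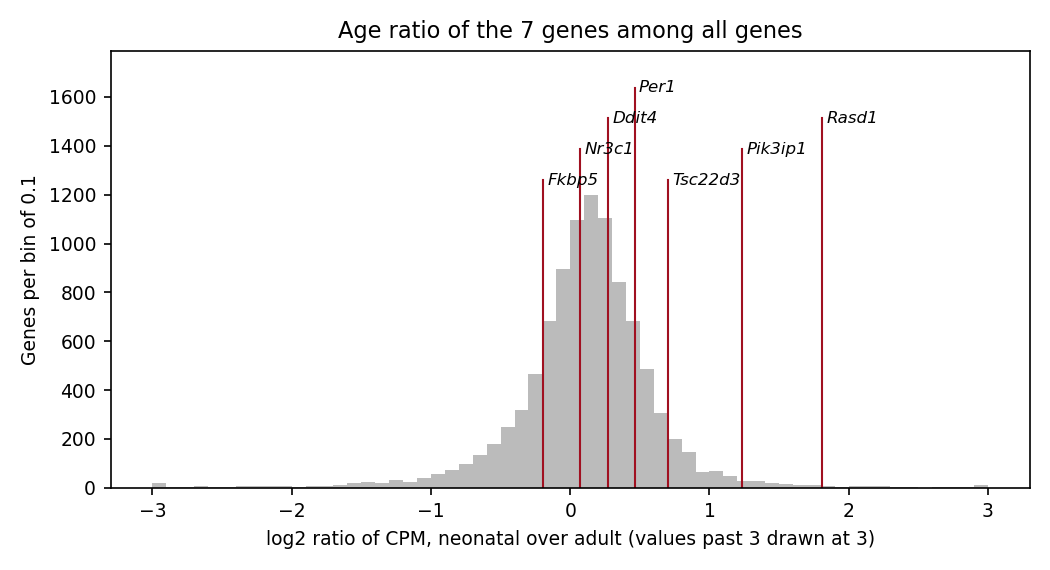
Number of genes by log2 ratio of CPM, neonatal over adult, for the 9824 genes with at least 100 UMIs and with UMIs in both libraries; red lines mark the 7 genes. Rasd1 at 1.81 and Pik3ip1 at 1.23 lie in the right tail, whereas Nr3c1 at 0.07 and Fkbp5 at -0.19 lie within the bulk of the genes, whose median is 0.14.

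The sequences before the transcription starts of the members are shown because the response of such genes is read through DNA motifs. RefSeq windows of the 250 bases before a start (GRCm38.p6) were given for 5 members, with 8 windows in all. Rasd1 and Nr3c1 had no window, so their upstream sequences were not examined. All 250 bases of the Pik3ip1 window lay in annotated exons. The glucocorticoid response element, searched without its last base as AGAACANNNTGTTC, was in 0 of the 8 windows and in 0.0304% of 32851 windows of all genes. With a motif so rare, 0 of 8 short windows says nothing about receptor binding at these genes. The half-site AGAACA, on either strand (the reverse reads TGTTCT), was in 1 window, the most upstream start of Tsc22d3, and in 16.1% of all windows. The E-box CACGTG, which the clock activators bind, was in a window of Per1 and in that of Fkbp5, and in 6.02% of all windows. The FOXO motif TGTTTAC was in 0 of the 8 windows and in 3.17% of all. The stretches of the 3 windows with a match that lie outside annotated exons are printed in the direction of the gene, with the matched motif in capitals.
Tsc22d3, chrX:140600660-140600772, minus strand: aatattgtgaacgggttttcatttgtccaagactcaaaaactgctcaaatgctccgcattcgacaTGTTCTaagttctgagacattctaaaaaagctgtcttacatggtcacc
Per1, chr11:69098699-69098947, plus strand: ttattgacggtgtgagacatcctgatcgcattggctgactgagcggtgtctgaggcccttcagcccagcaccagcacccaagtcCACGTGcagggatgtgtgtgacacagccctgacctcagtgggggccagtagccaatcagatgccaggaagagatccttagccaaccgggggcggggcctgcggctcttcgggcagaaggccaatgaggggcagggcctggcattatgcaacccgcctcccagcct
Fkbp5, chr17:28486150-28486399, minus strand: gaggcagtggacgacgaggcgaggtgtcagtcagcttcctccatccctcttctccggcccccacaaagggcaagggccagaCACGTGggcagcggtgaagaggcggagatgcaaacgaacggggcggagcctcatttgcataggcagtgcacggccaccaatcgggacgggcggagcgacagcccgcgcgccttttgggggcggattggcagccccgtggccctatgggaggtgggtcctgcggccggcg
The window holds 179 bases between the motif and the start for Tsc22d3, 160 for Per1 and 163 for Fkbp5. The E-box was thus in the window of a gene that was higher in neonatal cells, Per1, and in that of Fkbp5, whose intervals overlapped between the ages.

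More neonatal than adult cells had a Rasd1 transcript. To compare cells at equal depth, 2000 UMIs were drawn at random from each. Rasd1 was then present in 13.8% of neonatal cells (12.3 to 15.3) and in 4.65% of adult cells (3.99 to 5.39). Without this thinning the shares were 28.3% and 13.4%. From the RNA in near-empty droplets, 0.159% of neonatal and 0.102% of adult cells would have had a Rasd1 UMI at this depth, and the 14 neonatal and 4 adult droplets without Cd79a had 0. Those droplets had a median of 5975 and 7430 UMIs, but they are too few to bound a background share closely.

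The shares of the other members followed their levels. Tsc22d3 was present in 77.5% of neonatal and 65.5% of adult cells, Pik3ip1 in 17.4% and 9.22%, and Per1 in 9.15% and 6.40%. Over 50 further random draws the Pik3ip1 share had a mean of 18.3% (range 16.8 to 20.8) in neonatal cells. In adult cells its mean was 8.32% (range 7.62 to 8.81), so the adult share given here lay above all of those draws. Nr3c1 was present in 17.3% and 17.2%. Fkbp5 and Ddit4 were seen in at most 2.05% of cells in either library, near the limit of what this depth shows per cell.

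Rasd1 transcripts were concentrated in a minority of the cells. In thinned neonatal cells 88 of 2077 held at least 2 Rasd1 UMIs, up to 6, and the top 10% of cells held 82.3% of Rasd1 UMIs. For Pik3ip1 and Nr3c1, at like means, the top 10% of neonatal cells held 64.2% and 63.8%, so much of that share goes with sparse counts. The variance of the Rasd1 count between cells was 2.02 times its mean for neonatal cells and 1.63 times for adult cells. For 1205 neonatal and 2168 adult genes of like mean (within 1.5-fold), the median of that ratio was 1.05 and 1.02, and Rasd1 stood above 99.5% of them in both. Pik3ip1, whose level was close to that of Rasd1 in the neonatal library, had a ratio of 1.17 there, and Nr3c1 1.11. Tsc22d3 had a ratio of 1.83 in neonatal and 1.57 in adult cells, above 83.0% and 84.8% of the genes of like mean. Because Rasd1 and Tsc22d3 counts vary between cells by more than counting error, the intervals given for their levels and ratios are too narrow.

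**Figure D3:**
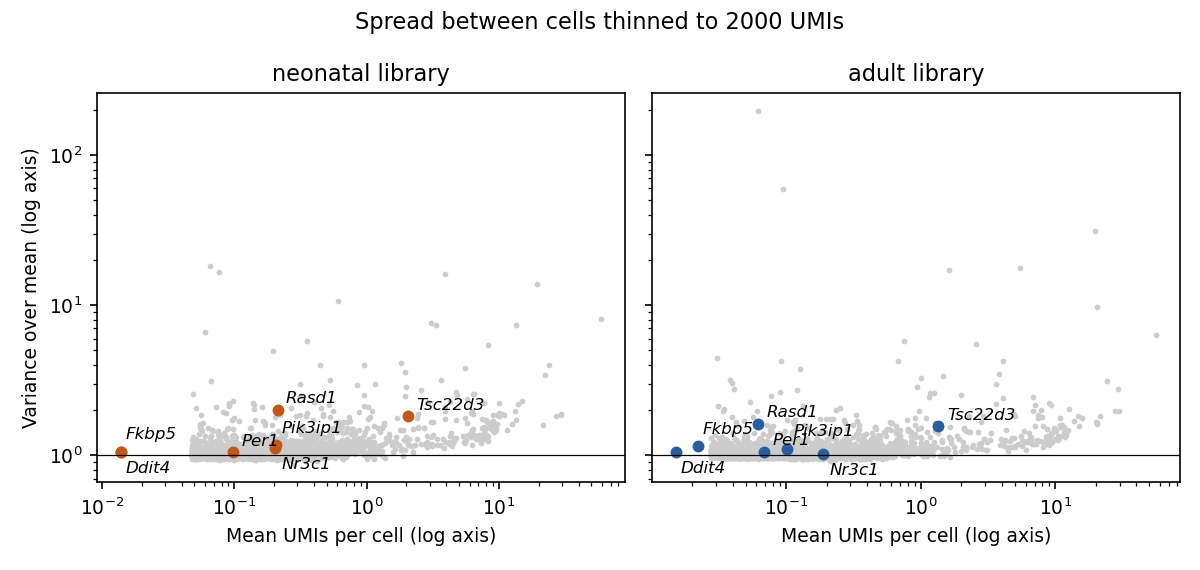
Variance over mean of the UMI count between cells, each thinned to 2000 UMIs, against the mean UMIs per cell, both on log axes, for genes with at least 100 thinned UMIs (grey) and the 7 members (coloured) in each library. The black line marks 1; Rasd1 lies above nearly all genes of its level, at 2.02 among neonatal and 1.63 among adult cells, whereas Per1, Ddit4 and Nr3c1 lie near the line.

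No other target was higher in cells with Rasd1 beyond the spread of the draws. In the thinning fixed for this comparison, the log2 ratio of Tsc22d3 in neonatal cells with a Rasd1 UMI over those without was -0.05 (-0.18 to 0.08). Over 50 random thinnings the mean of that ratio was 0.01, with a range of -0.21 to 0.20. With all UMIs of each cell, where cells with a Rasd1 UMI are not matched for depth, it was -0.16 (-0.21 to -0.11). In the adult library the mean was -0.08 (range -0.36 to 0.10). For Pik3ip1 the neonatal mean was -0.18 (range -0.65 to 0.29), and for the receptor Nr3c1 it was -0.29 (range -0.64 to 0.21). Per1 went the other way, at a mean of 0.17 (range -0.65 to 0.58), and so did the scarce Ddit4, at 0.21 (range -2.05 to 1.54), while Fkbp5 stood at -0.25 (range -2.86 to 0.81). The ranges over thinnings included 0 for all 6 genes.

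All 21 pairs of members were compared by r and by the cells that held both transcripts. In the thinning fixed for this comparison, Pearson's r over 2077 neonatal cells lay between -0.03 and 0.05 and over 3611 adult cells between -0.02 and 0.05, on the log of 1 plus the UMI count. For all 21 pairs in both libraries, the Poisson interval of the cells with both transcripts included the product of the single shares. That interval is wide for a gene that most cells hold, such as Tsc22d3. Some log2 ratios of levels, cells with a gene over those without, had intervals off 0 in the same thinning. With Tsc22d3, adult Pik3ip1 stood at 0.41 (0.08 to 0.75), adult Nr3c1 at 0.28 (0.04 to 0.52) and neonatal Rasd1 at -0.42 (-0.72 to -0.10). With Nr3c1, adult Pik3ip1 stood at 0.50 (0.13 to 0.86). Rasd1 and Tsc22d3 occurred together in 211 neonatal cells, where the product of their shares gave 222. Among the 12 pairs with at least 10 cells expected in each library, the 50 thinnings all lay on one side of the product for 1 pair, Tsc22d3 with Pik3ip1 in adult cells, at a mean of 1.11 times the product (range 1.04 to 1.23). In neonatal cells that pair stood at 1.03 (range 0.97 to 1.08). The r of these pairs are weak values in sparse counts and are given as descriptions. The points share a library, and thinning gives them an equal number of UMIs, but cells still differ in the UMIs they held before. With adult cells split into bins by those UMIs, Tsc22d3 held 905 CPM in the lowest bin and 458 CPM in the highest. Pik3ip1 held 63.2 and 37.6 CPM in the same bins. Both genes fell from the lowest to the highest bin in neonatal cells too. The part of these differences in the values of their pair was not tested.

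**Figure D4:**
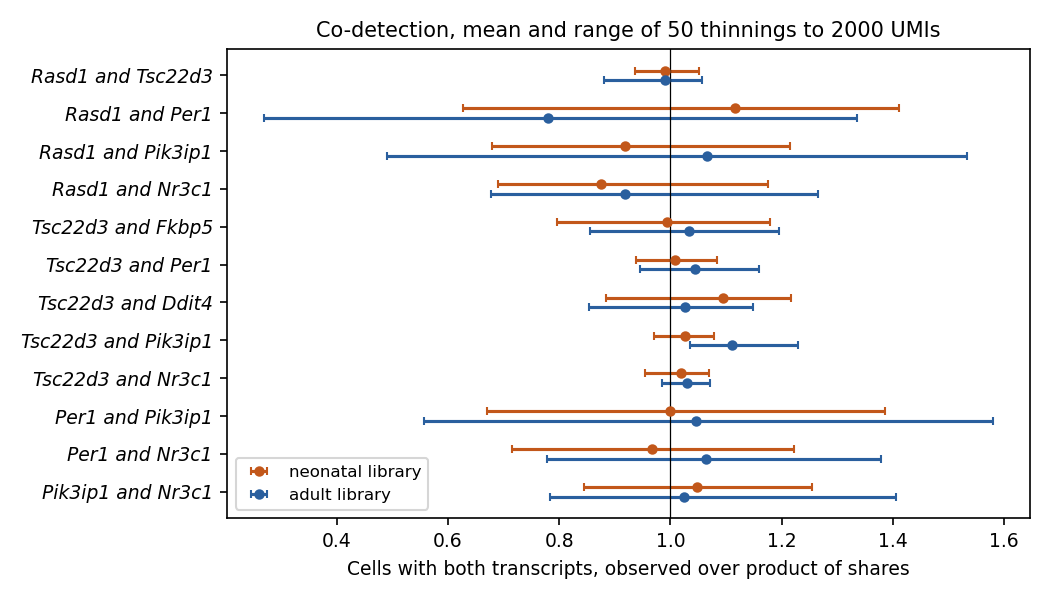
Cells with transcripts of both genes, divided by the product of the single shares, for the 12 of 21 pairs with at least 10 cells expected in each library; points are means of 50 thinnings to 2000 UMIs and bars their range, which shows the random draw and not counting error. Rasd1 with Tsc22d3 lies at 0.99 in both libraries.

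The genes whose counts were most like that of Rasd1 over 2077 neonatal cells were Cd72 (r = 0.107), Dusp2 (0.105), Fam43a (0.0973), Rassf3 (0.0855), Ephx1 (0.0837), Sh3bgrl (0.0819), Sp140 (0.0801), Fos (0.0774), Fcmr (0.0747) and Treml2 (0.0745). The 95th percentile of r with Rasd1 over 4683 genes was 0.0391. The ranking was not stable. In a second thinning Fam43a and Fcmr, at ranks 3 and 9 in the first, had ranks 7 and 17 of 4686 genes, Dusp2 and Cd72 had ranks 177 and 246, and the other 6 genes lay between ranks 465 and 1972. In adult cells the r of the 10 genes lay between -0.0144 and 0.0334.

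Vpreb3 is expressed in immature and transitional B cells, and Fcer2a encodes CD23, the low-affinity IgE receptor of mature follicular B cells. At 2000 UMIs per cell Vpreb3 was present in 45.6% of neonatal and 30.6% of adult cells, and Fcer2a in 25.3% and 41.6%. Tsc22d3 was higher in cells with Vpreb3 in both libraries. Its level was 1124 against 950 CPM in neonatal and 758 against 641 CPM in adult cells. The log2 ratio, cells with Vpreb3 over those without, was 0.24 in both libraries (0.16 to 0.33 in each), and the 50 thinnings ranged from 0.13 to 0.35 for neonatal and from 0.15 to 0.32 for adult cells. In the fixed thinning 77.5% of 4683 genes in neonatal and 83.3% of 5934 genes in adult cells had a lower ratio than Tsc22d3. The part of the UMIs that cells held before thinning was not tested. Nr3c1 was also higher with Vpreb3. The mean of the thinnings was 0.31 in neonatal (range 0.02 to 0.56) and 0.27 in adult cells (range 0.11 to 0.52).

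Rasd1 did not follow Vpreb3 in one direction. In the thinning fixed for this comparison it held 120 CPM in the 947 neonatal cells with Vpreb3 and 94.2 CPM in the 1130 without, a log2 ratio of 0.35 (0.08 to 0.63). Over 50 other thinnings of the same cells the mean was -0.10, the range -0.42 to 0.34, and 39 of the 50 values were below 0. With all UMIs of each cell the ratio was -0.06 (-0.21 to 0.09). The value of the single draw therefore lay outside the range of the others, and no Rasd1 difference by Vpreb3 larger than the spread of the draws was found. In adult cells the mean was 0.14 (range -0.36 to 0.82).

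By Fcer2a, the Rasd1 level was lower in neonatal cells in most thinnings. It held 91.4 CPM in 525 cells with Fcer2a and 111 CPM in 1552 without, a log2 ratio of -0.28 (-0.62 to 0.05). The mean of the 50 thinnings was -0.30 (range -0.62 to 0.05), with 47 of 50 values below 0, and all UMIs gave -0.26 (-0.40 to -0.12). In adult cells the mean was 0.00 (range -0.44 to 0.32). Pik3ip1 gave a neonatal mean of -0.27 (range -0.61 to 0.00) and an adult mean of 0.07 (range -0.21 to 0.30).

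Tsc22d3 went opposite ways with Fcer2a at the 2 ages. In neonatal cells it held 886 CPM with Fcer2a and 1077 CPM without, a log2 ratio of -0.28 (-0.39 to -0.18). In adult cells it held 736 CPM with Fcer2a and 634 CPM without, a log2 ratio of 0.22 (0.13 to 0.30). All 50 thinnings were below 0 for neonatal cells and 0 of 50 for adult cells. In the fixed thinning 18.5% of 4683 genes had a lower ratio in neonatal cells, and 82.1% of 5934 genes in adult cells. Tsc22d3 was also lower in cells that held more UMIs before thinning, and the part of that here was not tested. Vpreb3 moved with Fcer2a in the same directions, with a mean log2 ratio of -0.82 in neonatal and 0.26 in adult cells, and its part in the Tsc22d3 values was not tested.

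The age ratio of Rasd1 was present in each class of cells defined by the 2 markers. In the thinning fixed for this comparison the log2 ratio was 1.68 in cells with Vpreb3 only and 1.57 in cells with both. It was 1.47 in cells with Fcer2a only and 1.83 in cells with neither. Over the 50 other thinnings the means of these classes, in the same order, were 1.64, 1.30, 1.64 and 1.92. The lowest value in any class was 0.06, in the small class with both. The classes rest on UMIs of 2 genes at this depth and do not match cells between ages. Cr2, the gene of CD21, held 20.5 CPM in neonatal and 113 CPM in adult cells with Vpreb3 only. In cells with neither marker, 38.4% of neonatal and 42.7% of adult cells, it held 31.4 and 102 CPM. Equal class shares therefore do not make the cells of the 2 ages alike. When adult cells were given the neonatal shares of the 4 classes, the Rasd1 ratio in the fixed thinning was 1.69, against 1.78 without that step. In that draw Pik3ip1 changed from 1.02 to 0.94 and Tsc22d3 from 0.61 to 0.57. Over the 50 other draws the means changed from 1.75 to 1.72 for Rasd1 and from 1.24 to 1.16 for Pik3ip1. For Tsc22d3 they changed from 0.61 to 0.59. Both Pik3ip1 values of the fixed draw lay below these draws, at 1.06 to 1.44 without the step and 0.96 to 1.35 with it. For Tsc22d3 the age ratio in the fixed thinning was larger in cells without Fcer2a, at 0.60 with Vpreb3 and 0.76 with neither marker. In cells with Fcer2a it was 0.28 with Vpreb3 and 0.26 without. The means of the 50 draws, in the same order, were 0.63 and 0.73 without Fcer2a, and 0.23 and 0.34 with it.

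**Figure D5:**
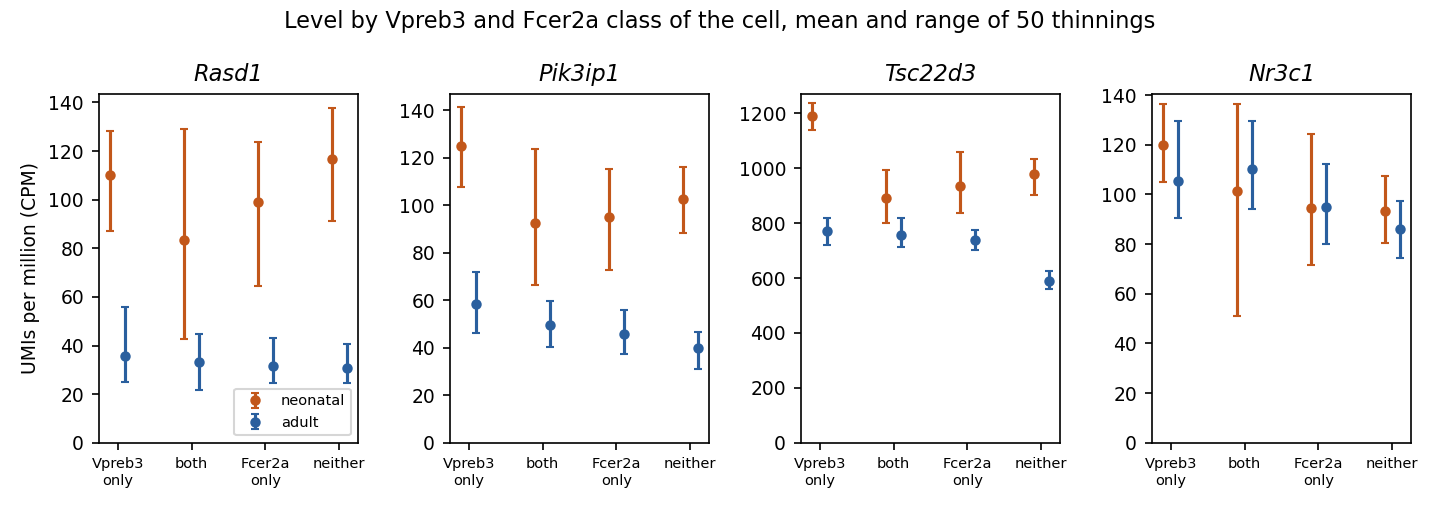
Level of Rasd1, Pik3ip1, Tsc22d3 and Nr3c1 in cells with a UMI of Vpreb3 only, of both Vpreb3 and Fcer2a, of Fcer2a only and of neither, in CPM; points are means of 50 thinnings to 2000 UMIs and bars their range. Mean Rasd1 lies between 83.2 and 117 CPM in the neonatal classes and between 30.9 and 35.8 CPM in the adult ones, whereas Nr3c1 overlaps between ages.

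The neonatal library held cells of both sexes, told apart by UMIs of Xist or of 4 Y-linked genes. Cells with UMIs of both or of neither were left out of the 2 groups. Rasd1 held 95.9 CPM in 1279 male and 131 CPM in 323 female neonatal cells, a log2 ratio of -0.45, male over female (-0.65 to -0.26). Pik3ip1 was lower in male cells too, at 85.6 against 113 CPM (-0.41, -0.61 to -0.20), and so were the receptor Nr3c1 (-0.27, -0.48 to -0.06) and Tsc22d3 (-0.13, -0.20 to -0.06). The median over 7604 genes was -0.01, and 3.39% of the genes had a ratio at or below that of Rasd1. The number of mice of each sex is not given in the labels. Male neonatal cells had a median of 6269 UMIs and female ones 5543. From the lowest to the highest of 4 bins of neonatal cells by UMIs, Tsc22d3 fell from 1335 to 714 CPM. Pik3ip1 fell from 129 to 71.9 CPM and Nr3c1 from 134 to 88.1 CPM. Rasd1 held 84.8, 112, 133 and 92.9 CPM over the 4 bins. The part of depth in the sex differences was not tested. Against the 29.7 CPM of adult male cells, Rasd1 was 1.69 higher on the log2 scale in neonatal male cells (1.56 to 1.82) and 2.15 higher in neonatal female cells (1.95 to 2.34).

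Among 29 other glucocorticoid targets with at least 100 UMIs, 9 were at least 1.5-fold higher in neonatal and 1 in adult cells, beside 11.0% and 6.49% of all genes, with a median log2 ratio of 0.18 against 0.14 for all genes. Those of at least 20 CPM with the largest ratios were Glul, glutamine synthetase (46.5 against 26.2 CPM, log2 ratio 0.83), Irs2, an adaptor of the insulin receptor (184 against 105 CPM, 0.81), Zfp36, which promotes decay of cytokine mRNAs (348 against 201 CPM, 0.79), and Btg1, an inhibitor of proliferation (2467 against 1508 CPM, 0.71). The 1 target higher in adult cells at 1.5-fold was Txnip (304 against 489 CPM, -0.68). Dusp1 was also lower in neonatal cells, by less (144 against 177 CPM, -0.30). Of 16 genes of the receptor machinery, the members Nr3c1 and Fkbp5 among them, 1 was higher in each direction at 1.5-fold and the median was 0.07. Among its genes of at least 20 CPM, the co-chaperone Stip1 (62.8 against 41.2 CPM, 0.61) and the chaperone Hsp90aa1 (642 against 441 CPM, 0.54) differed most. The co-chaperone Fkbp4 (111 against 77.3 CPM, 0.53) and the coactivator Ncoa3 (74.0 against 53.6 CPM, 0.47) came next. The more abundant chaperone Hsp90ab1 held 1637 against 1640 CPM (-0.0022). Below 20 CPM Hsd11b1, which regenerates active glucocorticoid, held 8.11 against 12.2 CPM (-0.59).

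The pathways in which single members take part are set beside the 11.0% of all genes that were 1.5-fold higher in neonatal and the 6.49% in adult cells. Of 13 clock genes 4 were at least 1.5-fold higher in neonatal and 1 in adult cells (median 0.24), with Cry1 at 0.84, Bhlhe41 at 0.62 and Bhlhe40 at 0.43 on the log2 scale. Of 26 PI3K and mTOR pathway genes, 2 of them members, 3 were higher, Pik3ip1 itself among them, and 1 lower (median 0.19). The lower one, the lipid phosphatase Inpp4b, held 15.5 CPM in neonatal and 38.2 CPM in adult cells. Eif4ebp1, a repressor of translation that mTORC1 inactivates, stood at 0.74 and the S6 kinase Rps6kb1 at 0.56. Of 19 FOXO genes and targets, 2 of them members, 6 were higher and 1 lower (median 0.36). Those of at least 20 CPM were led by Pik3ip1, by the chemokine receptor Ccr7 (1103 against 471 CPM, 1.23) and by the egress receptor S1pr1 (359 against 178 CPM, 1.01). Ccr7, a listed follicular marker, was higher in the library with the smaller share of Fcer2a cells. Of the 6 listed follicular markers 2 were at least 1.5-fold higher in neonatal and 3 in adult cells (median -0.42).

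Of 13 hypoxia and amino acid stress genes, the list that holds Ddit4, 4 were higher in neonatal and 0 in adult cells (median 0.31), again beside 11.0% and 6.49% of all genes. Ddit3 held 76.5 against 31.0 CPM (1.31) and Ankrd37 35.2 against 18.9 CPM (0.90), with Atf4 at 0.52 and Hif1a at -0.36. Of 16 Ras-like and G protein partners Rasd1 itself was the only one 1.5-fold higher in neonatal cells and 2 were higher in adult cells, with Rap1b at 0.40, Hras at 0.37 and Rgs19 at 0.29. In the TSC22 family Tsc22d3 was 1 of 4 past 1.5-fold, and Tsc22d4, Tsc22d1 and Tsc22d2 stood at 0.40, 0.38 and 0.13.

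Immediate-early genes and genes known to be induced by tissue digestion were higher in the neonatal library. So were Rasd1, for whose rise the members were listed, and 2 of the 6 other members at 1.5-fold. Of 18 such genes 10 were at least 1.5-fold higher in neonatal and 0 in adult cells, beside 11.0% and 6.49% of all genes, with a median log2 ratio of 0.66. Klf4 held 250 against 114 CPM (1.13), Atf3 218 against 102 CPM (1.09), Fosb 300 against 151 CPM (0.99) and Dnajb1 73.9 against 42.5 CPM (0.80). The part of this response in the levels of Rasd1, Pik3ip1 and Tsc22d3 was not tested.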

How the data were processed

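The authors processed reads with Cell Ranger (3.0.2 in the file headers) against mm10 and deposited UMI counts for every gene and barcode as raw values, with no droplets removed. The study's methods give another version of Cell Ranger. Antibody rows were not used here. Members and gene lists were chosen with earlier results of these data known. Named genes were the 7 members, Vpreb3, Fcer2a, Cr2, the 4 genes with the largest absolute log2 age ratio at 20 CPM or more in each list, and the 10 genes most like Rasd1. Some other listed genes are given where they limit a statement.

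UMIs were summed over the cells of a library and divided by their total (CPM). Intervals were exact at 95% (Poisson for levels, Clopper-Pearson for shares, conditional binomial for ratios). Comparisons within a library used cells thinned to 2000 UMIs with 1 random seed, and 50 further thinnings were added after seeing the data. Free RNA was read from droplets ranked 45000 to 90000 by UMIs. No doublet caller was run, and 5% of droplets with the most UMIs were left out as an alternative. Gene positions came from GENCODE M21 and upstream sequences from RefSeq. On simulated Poisson counts for 9830 genes, 100% of 200 changed genes had the right sign. Intervals covered the truth for 98.5% of changed and 95.6% of unchanged genes. The intervals assume such counts, so this checks the code and not their coverage where cells vary by more than counting error. Python was 3.11.15, matplotlib 3.10.9, scipy 1.17.1, pandas 2.3.3 and numpy 2.4.6.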

Additional observations from a re-analysis of the deposited data

Results flagged for a closer look

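Tsc22d3 differed between cells with and without Fcer2a in opposite directions at the 2 ages, with a log2 ratio of -0.28 in neonatal and 0.22 in adult cells. The intervals of both ratios lay away from 0, but with 1 library per age the difference between ages was not tested. Among all genes, 18.5% had a lower ratio in neonatal and 82.1% in adult cells. Droplets with over 10% mitochondrial UMIs are left out of the cells as defined, and were taken here with or without Cd79a. Only those with Cd79a and at most 20% enter an alternative, the limit of 20%. The droplets over 10% held 192 Rasd1 UMIs in the neonatal library (416 droplets, 88.4 CPM, 95% interval 76.3 to 102). In the adult library they held 73 (505 droplets, 36.1 CPM, 28.3 to 45.4). Both counts are above the 3 counts that a count of 0 allows. In the same droplets Tsc22d3 held 813 against 724 CPM and Pik3ip1 90.2 against 63.3 CPM.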

How the results depend on the processing

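With 1 library per age no library could be left out, and no setting replaces a second library. No paired analysis was possible because each age has 1 library and the comparisons come from no test. The log2 age ratio of Rasd1 stayed above 0 in 17 alternatives, between 1.28 and 2.37. It was 1.98 at a mitochondrial limit of 5% (60 neonatal and 156 adult cells), 1.69 in male droplets and 1.67 with the median of all genes set to 0. Chosen after seeing the data, neonatal female over adult male droplets gave 2.15. Splitting the droplets of each library into 4 equal bins of UMIs gave 1.28, 1.60 and 2.37 in the first 3 bins. These values lay outside the interval of the ratio as reported. The bins were made within each library and do not match depth between ages. The highest began above 8204 UMIs in neonatal and above 11137 UMIs in adult cells. The number of other members at least 1.5-fold higher was 1 with the median set to 0, 1 in the second bin and 4 in the third, and 2 or 3 in the other 15 alternatives, though not always of the same genes. At the 5% limit the 2 were Fkbp5 (0.75) and Ddit4 (1.05), and in the first bin Per1 (0.60) took the place of Tsc22d3 (0.56). Without a minimum of UMIs per gene, the share of all genes past 1.5-fold was 23.1% in place of 11.0%.

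The Rasd1 ratio by Vpreb3 turned below 0 in 12 of 13 alternatives: -0.45 at a minimum of 4000 UMIs, -0.69 at a mitochondrial limit of 5%, -0.0081 at 20%, -0.27 with a second B cell gene, -0.50 without droplets holding UMIs of other cell types, -0.091 without the largest droplets, -0.24 without shared barcodes, -0.38 in male droplets, -0.15 with another draw, -0.059 unthinned, -0.41 at 1000 UMIs and -0.10 as the mean of 50 draws, added after seeing the data. It was the same (0.35) at a minimum of 1000 UMIs, which draws the same UMIs. The ratio by Fcer2a moved to -1.28 at the 5% limit, -0.62 without shared barcodes and 0.23 at 1000 UMIs. Tsc22d3 in cells with Rasd1 moved to 0.32 at the 5% limit, 0.10 with a second B cell gene and 0.083 without the largest droplets, and it was -0.16 (-0.21 to -0.11) unthinned. The draw alone ranged from -0.42 to 0.34 by Vpreb3, from -0.62 to 0.05 by Fcer2a and from -0.21 to 0.20 for Tsc22d3, and the cause of each single shift was not tested. A cell thinned to 2000 UMIs shows Rasd1 in few cells, which limits the comparisons within a library.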
